A study of Mus musculus with 6 samples.

Results

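The glyoxalase genes Glo1, Hagh and Glod4 and Gm13443, an annotated processed pseudogene of Glo1, were examined in mouse liver RNA. They were taken by gene name from a deposited table of 55573 genes, and all 4 were present. They had been put together with their levels in these libraries known, so their own values are described without a test. The liver libraries came from generation 3 mice of a pair of genotypes, with 3 libraries each. The libraries labelled p21TKO came from mice described as p21-/-, mTR-/- and Wrn-/-, and the libraries labelled DKO from mice described as mTR-/- and Wrn-/-. Both groups therefore share the loss of mTR, the RNA template of telomerase, and of Wrn, a RecQ helicase, and the comparison asks what loss of p21 adds. The deletions are not described as limited to the liver, and sex is not stated. All library titles share the mark 2M, which the labels do not explain, and no age is given elsewhere in them. Nothing in the labels ties the replicates to separate animals, so the spread between libraries may be partly technical.

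Methylglyoxal is a reactive dicarbonyl that forms mainly from the triose phosphates of glycolysis and modifies proteins and DNA. It combines spontaneously with glutathione, and glyoxalase 1, the product of Glo1, turns this adduct into S-D-lactoylglutathione. Glyoxalase 2, the product of Hagh, hydrolyses that thioester to D-lactate and frees the glutathione. Glod4 encodes a protein with glyoxalase 1-like domains. A processed pseudogene is a copy of a spliced messenger RNA that was inserted into the genome, and it therefore carries no introns.

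Gm13443 was close to a complete copy of the Glo1 coding sequence. Glo1 (ENSMUSG00000024026) is annotated on chromosome 17, 30584936 to 30626871, minus strand (GRCm38, GENCODE M21), and its coding sequence of 555 bases, 184 codons and a stop, is spread over 6 exons. Gm13443 (ENSMUSG00000075391) is annotated on chromosome 2 as 1 exon of 555 bases that lies inside no other annotated gene. Aligned along its whole length, it had no insertion or deletion and 3 substitutions. Of all windows of 50 bases in Gm13443, 78.5% occurred unchanged in a Glo1 transcript, and for windows of 100 and 150 bases the shares were 61.6% and 44.6%. A read inside such a window fits either locus equally well. The sources used here do not say how the authors placed such reads, so the values of Glo1 and Gm13443 below are uncertain as separate values. No near copy of the coding sequences of Hagh or Glod4 was found among the annotated transcripts. Glo1 had 1 other match, of 85 bases, in AC165962.4, a gene on the opposite strand inside the Glo1 locus that stood at 0.049, 0.103 and 0.193 FPKM in the libraries labelled p21TKO and at 0.0395, 0 and 0.0214 FPKM in DKO.

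Levels are given as FPKM, reads scaled to exon length and to sequencing depth, as the authors deposited them. Multiplying by exon length gave whole reads, and the FPKM denominators lay between 19363286 and 27061292 reads per library. Cdkn1a, the p21 gene, was not lower in the libraries labelled p21TKO (1.41, 11.0 and 6.50 FPKM) than in DKO (0.761, 1.79 and 0.405 FPKM), and Wrn was present at 0.214 to 0.279 FPKM and 0.197 to 0.294 FPKM. The sources used here do not name the deleted parts of these genes, so these values cannot check the deletions. Terc, the mTR gene, has more than 1 row under its symbol, and the row used was at 0 in all 6 libraries. The Terc RNA lacks the polyA tail by which the RNA was selected. The group names below are therefore those of the labels. Ddx3y, a Y-linked gene, had 12.6 FPKM in p21TKO replicate 1, against 11.6 FPKM in DKO replicate 2 and 11.4 FPKM in DKO replicate 3, and was listed at 0 elsewhere. Xist, which coats the inactive X chromosome, was at 7.35 and 1.79 FPKM in p21TKO replicates 2 and 3, at 20.9 FPKM in DKO replicate 1, and at 0.00576 FPKM or less in the libraries with Ddx3y.

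Glo1 transcripts were high in 2 of 3 libraries labelled p21TKO, and the groups overlapped. Glo1 stood at 56.3, 30.7 and 14.7 FPKM (13195, 8525 and 4826 reads) in p21TKO, and at 15.0, 21.2 and 19.6 FPKM (4363, 5525 and 5284 reads) in DKO, with replicates 1 to 3 in that order here and below. The highest library and the lowest of all 6 were both p21TKO libraries. The means were 33.9 ± 21 FPKM in p21TKO and 18.6 ± 3.23 FPKM in DKO (SD, n = 3 each). On the log2(FPKM + 1) scale, used for all differences below, Glo1 was 0.65 higher in p21TKO (SE 0.46). Leaving out p21TKO replicate 1 gave 0.20, and leaving out p21TKO replicate 3 gave 1.13. Within the libraries with Y-linked transcripts it was 1.42 and within those without them 0.48. Summed levels of 4 erythroid genes, markers of red cells, moved with Glo1 across much of the range, at 726, 528 and 17.9 FPKM in p21TKO and 109, 576 and 226 FPKM in DKO. The part of these cells in the Glo1 values was not tested, and in bulk tissue fewer cells of a type cannot be told apart from less RNA per cell.

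Gm13443 was the member whose groups stood apart. It stood at 91.8, 94.8 and 34.0 FPKM (987, 1208 and 511 reads) in p21TKO and at 4.57, 4.77 and 6.08 FPKM (61, 57 and 75 reads) in DKO. Every library labelled p21TKO was above every DKO library, and the lowest of them, replicate 3, was also the lowest of its group for Glo1. The means were 73.6 ± 34.3 FPKM in p21TKO and 5.14 ± 0.818 FPKM in DKO (SD, n = 3 each), a difference of 3.47 (SE 0.41). It ranged from 3.22 to 3.95 when each library was left out in turn. It was 3.86 within the libraries with Y-linked transcripts and 3.38 within those without.

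Hagh, the gene of the second enzyme, was the highest of the 4 in each library except p21TKO replicate 2. It is annotated on chromosome 17, 24840143 to 24864450. Hagh stood at 169, 75.1 and 48.0 FPKM (6255, 3291 and 2478 reads) in p21TKO and at 103, 141 and 114 FPKM (4721, 5778 and 4822 reads) in DKO. As for Glo1, the highest and the lowest library were p21TKO replicates 1 and 3, so the groups overlapped, with DKO libraries between them. The means were 97.5 ± 63.7 FPKM in p21TKO and 119 ± 19.5 FPKM in DKO (SD, n = 3 each), and the difference was -0.47 (SE 0.47). Without p21TKO replicate 1 it was -0.96, and without p21TKO replicate 3 it was -0.07. It was 0.42 within the libraries with Y-linked transcripts and -0.77 within those without, so its direction turned. Fahd1, which encodes an acylpyruvate hydrolase, lies inside the Hagh locus on the opposite strand. No exon base of Hagh is also exon of another gene. Fahd1 stood at 25.3, 19.2 and 25.9 FPKM in p21TKO and at 26.9, 26.3 and 25.6 FPKM in DKO (difference -0.17, SE 0.20, limma adjusted p = 0.7703).

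Glod4 was the lowest of the 4 in p21TKO and close to Gm13443 in DKO. Glod4 is annotated on chromosome 11, 76120987 to 76243725. It stood at 4.13, 4.66 and 3.03 FPKM (480, 642 and 493 reads) in p21TKO and at 5.09, 4.17 and 5.83 FPKM (735, 539 and 778 reads) in DKO. The groups overlapped, since p21TKO replicate 2 was above DKO replicate 2. The means were 3.94 ± 0.828 FPKM in p21TKO and 5.03 ± 0.831 FPKM in DKO (SD, n = 3 each), a difference of -0.29 (SE 0.19) that was -0.15 without p21TKO replicate 3. Of its 6005 exon bases, 58.3% are also exon of another gene on the same strand, mostly of Gemin4 with 3353 shared bases. Gemin4 itself stood at 0.083 FPKM or less in each library. On the opposite strand Fam57a shares 2875 of the Glod4 exon bases, and no strandedness is stated for the libraries. The sources used here do not say how reads from shared bases were counted, so the Glod4 level is uncertain in size.

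**Figure D1:**
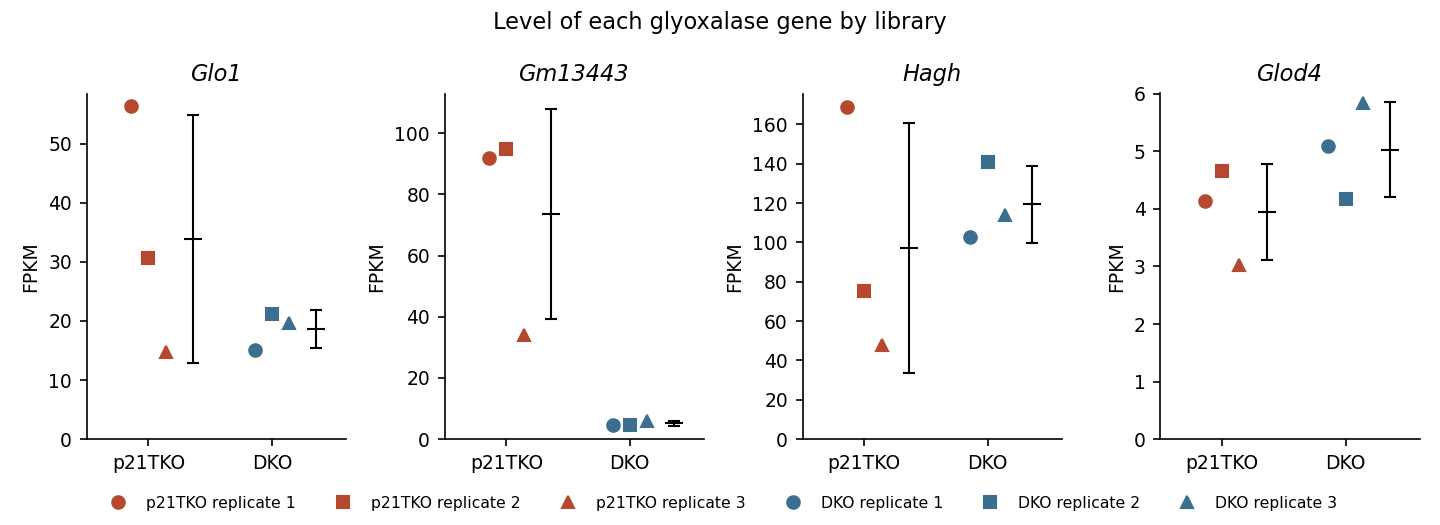
FPKM of Glo1, Gm13443, Hagh and Glod4 (1 panel each, y axes from 0) in each p21TKO library and each DKO library, with the mean and SD of the 3 libraries beside them. Gm13443 lies at 34.0 FPKM or above in p21TKO and at 6.08 FPKM or below in DKO, while the points of the other members overlap between the groups.

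By the mean over libraries the order in p21TKO was Hagh, Gm13443, Glo1 and Glod4, and in DKO it was Hagh, Glo1, Gm13443 and Glod4. In p21TKO the ranges of Hagh, Gm13443 and Glo1 overlapped each other. In DKO Hagh and Glo1 each lay apart from the rest, and Gm13443 and Glod4 did not differ beyond their spread. Of the 4 members, 0 passed the test that was fitted over the whole table (limma with Benjamini-Hochberg adjustment over 9538 genes with a mean of at least 1 FPKM, adjusted p under 0.05), against 0.0734% of all genes tested (0.0315% higher and 0.0419% lower in p21TKO). With voom on recovered reads 0 of 4 passed, and by each tool 1 of 4 had an unadjusted p under 0.05. Over all genes, 895 of 9538 had such a p by limma, and 261 higher and 599 lower of 9537 by voom. Gm13443 passed when p21TKO replicate 1 or p21TKO replicate 3 was left out. The calls over all genes were then 225 higher and 270 lower without replicate 1, and 2 higher and 1 lower without replicate 3. The groups did not overlap for 1 of 4 members, against 15.4% of all genes tested (6.93% higher and 8.49% lower in p21TKO). Nothing is read from any of these counts because the members were chosen on this contrast. Across the 6 libraries, Pearson's r of log2(FPKM + 1) was 0.685 between Glo1 and Gm13443, 0.567 between Glo1 and Hagh and 0.022 between Glo1 and Glod4. These are descriptions over libraries that share depth and group, and Glo1 and Gm13443 may also share reads.

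The FPKM of Glo1 depends on how long the gene is taken to be. The deposited values fit a length of 12101 bases, the union of all annotated exons, which includes a transcript of 9865 bases. The transcript whose coding sequence was compared with Gm13443 has 895 bases. If all Glo1 reads came from the shorter transcript, its level on the same scale would be 761, 415 and 199 in p21TKO and 203, 287 and 266 in DKO. With the longer transcript it would be 69.1, 37.6 and 18.1 in p21TKO and 18.4, 26.0 and 24.1 in DKO. On the deposited scale Gm13443 was above Glo1 in every p21TKO library, and with the 895 bases of the shorter transcript it was below Glo1 in every library. The order of these genes by level therefore rests on the length chosen, while the differences between libraries do not.

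Reads do not depend on that choice, and the reads of both loci were added up. Gm13443 held 6.96%, 12.4% and 9.57% of the summed reads in p21TKO and 1.38%, 1.02% and 1.40% in DKO. The 95% Wilson intervals were 6.55 to 7.39, 11.8 to 13.1 and 8.81 to 10.4% in p21TKO and 1.07 to 1.77, 0.789 to 1.32 and 1.12 to 1.75% in DKO, and they cover counting error only. Those of p21TKO did not overlap each other, so the spread between these libraries went beyond counting error. The intervals are therefore not read as a test between the groups, and the pair was chosen with its values known. The mean share was 9.65 ± 2.73% in p21TKO and 1.27 ± 0.213% in DKO (SD, n = 3 each), which is 8.38 percentage points more in p21TKO. Leaving out each library in turn gave 7.0 to 9.73 points.

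The sum itself overlapped between the groups. Glo1 and Gm13443 together made up 732, 424 and 197 RPM (reads scaled to sequencing depth) in p21TKO and 184, 259 and 241 RPM in DKO. The means were 451 ± 269 RPM in p21TKO and 228 ± 39.3 RPM in DKO (SD, n = 3 each), a log2 difference of 0.80. It came to 0.36 when p21TKO replicate 1 was left out and to 1.30 when p21TKO replicate 3 was. Adding FPKM in place of reads gave 2.04, because a read counts for more over the 555 bases of Gm13443 than over the 12101 bases of Glo1.

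A share of reads on a copy elsewhere in the genome was also taken for 3 other genes of chromosome 17, which earlier results of these data had singled out. They were Atp6v0c, a subunit of the vacuolar proton pump, Rps2, a ribosomal protein, and Hmga1, a chromatin protein, and they lie 4.93, 4.37 and 1.53 Mb from Cdkn1a, where Glo1 lies at 1.49 Mb. Atp6v0c-ps2 on chromosome 6 held 55.0%, 68.7% and 65.3% of the pair's reads in p21TKO and 1.47%, 1.53% and 1.45% in DKO. Rps2-ps6 on chromosome 14 held 2.44%, 1.74% and 2.05% in p21TKO and 0.209%, 0.267% and 0.194% in DKO. Hmga1b on chromosome 11 held 50.2%, 52.4% and 58.3% in p21TKO and 8.71%, 6.92% and 7.84% in DKO. In each pair every library labelled p21TKO was above every DKO library, as for Gm13443, and because the pairs were picked for such values this is a description. The p21TKO mean was 7.60 times the DKO mean for Gm13443, 42.6 times for Atp6v0c-ps2, 9.24 times for Rps2-ps6 and 6.87 times for Hmga1b. Of the parent genes, Atp6v0c and Hmga1 were lower in every p21TKO library than in any DKO library, while Rps2 and Glo1 overlapped. Atp6v0c stood at 6.49, 8.81 and 7.53 FPKM in p21TKO and 15.7, 15.0 and 19.0 FPKM in DKO. Hmga1 stood at 2.79, 2.81 and 3.01 FPKM in p21TKO and 8.01, 10.9 and 8.22 FPKM in DKO. Rps2 stood at 229, 265 and 323 FPKM in p21TKO and 260, 360 and 266 FPKM in DKO (difference -0.11, SE 0.29).

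**Figure D2:**
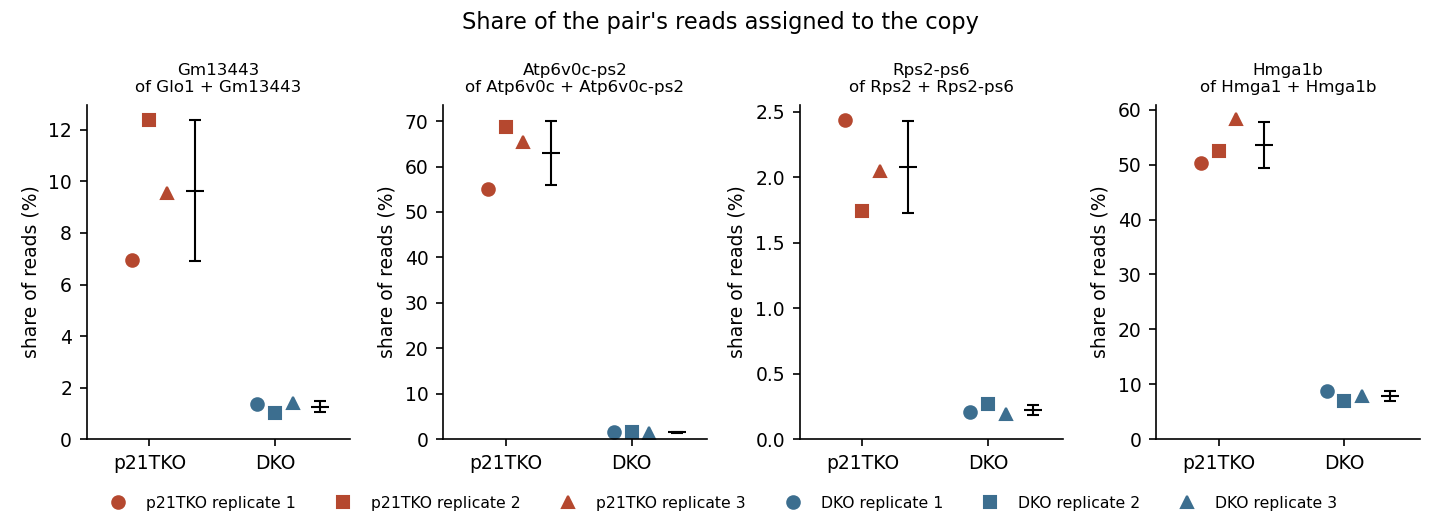
Share of the reads of a gene and its copy that were assigned to the copy (y axes in percent, from 0), for Gm13443, Atp6v0c-ps2, Rps2-ps6 and Hmga1b, in each p21TKO library and each DKO library, with mean and SD of 3 libraries. In each panel the p21TKO points lie above the DKO points, for Gm13443 at 6.96% or above against 1.40% or below.

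None of the genes tested within 1 Mb of Glo1 or 0.5 Mb of Gm13443 passed the limma test. Within 1 Mb of Glo1 (distances between the lower coordinates) 68 genes were listed and 7 were expressed enough to test. By limma 0 of 7 passed, against 0.0734% of all genes tested, and 1 had an unadjusted p under 0.05, against 895 of 9538. For the 7 genes voom gave the same counts. Their median difference was -0.09, against 0.002 over all genes tested. The exception was Gm15318, a predicted gene, at 1.78, 1.30 and 0.527 FPKM in p21TKO and 3.69, 3.53 and 3.06 FPKM in DKO (difference -1.05, SE 0.24, limma adjusted p = 0.4198). It was the 1 of 7 whose groups did not overlap, against 15.4% of all genes tested. Zfand3, a zinc finger gene, had a difference of -0.14, Pde9a, a cyclic GMP phosphodiesterase, 0.03, Wdr4, a transfer RNA methyltransferase subunit, 0.00, Ndufv3, a subunit of respiratory complex I, -0.09, and Pknox1, a homeobox factor, 0.16 (limma adjusted p from 0.7103 to 0.9974). Tff3, a trefoil peptide gene, stood at 24.1, 6.54 and 5.70 FPKM in p21TKO and 0.675, 63.2 and 20.7 FPKM in DKO, with an SE of 1.30 on a difference of -0.29 (limma adjusted p = 0.9488).

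None of the genes next to Glo1 was expressed enough to test. In some inbred mouse strains a segment with Glo1, Dnah8 and Glp1r is known to be duplicated, and copy number was not measured here. Dnah8, a dynein heavy chain, had 7, 11 and 5 reads in p21TKO and 1, 4 and 7 in DKO, and Glp1r, the GLP-1 receptor, had 1, 3 and 1 reads in p21TKO and 1, 4 and 1 in DKO, too few to show a difference. Btbd9, which overlaps no part of Glo1, stood at 0.621, 0.697 and 0.568 FPKM in p21TKO and 0.569, 0.526 and 0.734 FPKM in DKO. AC165962.1, an antisense gene between Btbd9 and Glo1 whose start overlaps the start of Btbd9 on the opposite strand, stood at 0.246, 0.353 and 0.816 FPKM (30, 51 and 139 reads) in p21TKO and at 0.218, 0.192 and 0.15 FPKM (33, 26 and 21 reads) in DKO. Its groups did not overlap in FPKM, as for 15.4% of all genes tested, but it was itself too low to test. The gap was narrow, with 30 reads in p21TKO replicate 1 and 33 in DKO replicate 1. AC165962.1 was highest in p21TKO replicate 3, where Glo1 was lowest.

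**Figure D3:**
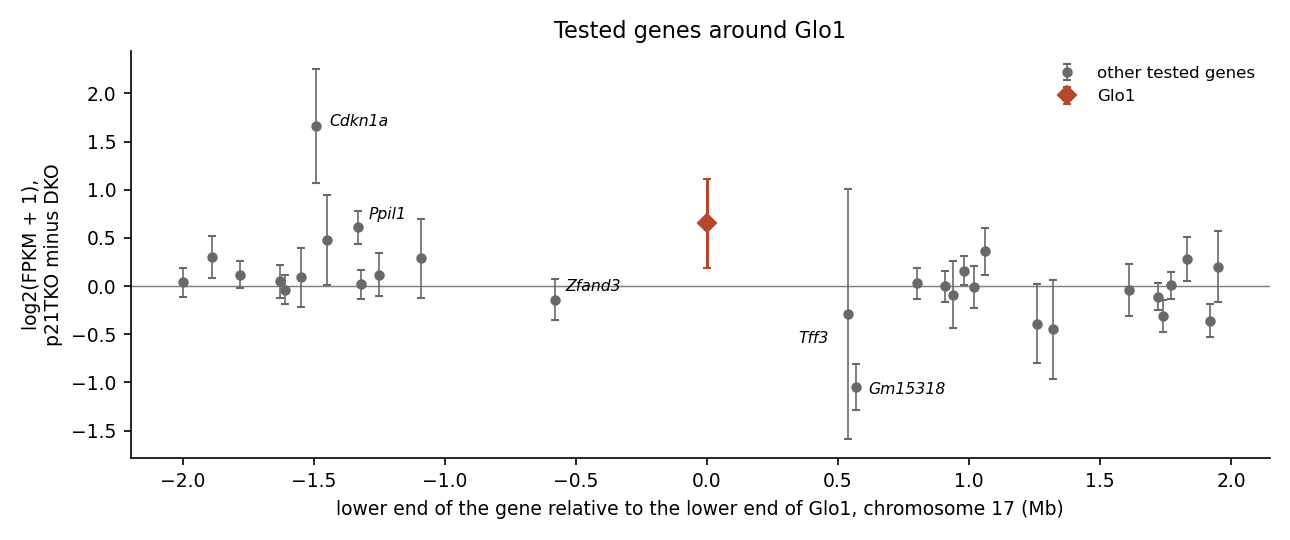
Difference in log2(FPKM + 1), p21TKO minus DKO, with its SE (y axis), for Glo1 and every tested gene within 2 Mb of it on chromosome 17, by distance in Mb (x axis). Glo1 at 0.65 has no tested gene within 0.5 Mb, Gm15318 lies lowest at -1.05 and Cdkn1a lies highest at 1.66.

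Around Gm13443, a window chosen after its values were seen, 9 of 28 genes within 0.5 Mb were tested. By limma 0 passed, against 0.0734% of all genes tested, and 0 had an unadjusted p under 0.05, against 895 of 9538. By voom 0 passed, against 0 higher and 2 lower of all 9537 genes fitted. An unadjusted voom p under 0.05 was found for 0, against 261 higher and 599 lower. So few genes cannot show that the surroundings were unchanged. The closest, Stom, a membrane scaffold gene, stood at 12.4, 12.5 and 7.33 FPKM in p21TKO and 14.1, 14.4 and 14.7 FPKM in DKO (difference -0.43, SE 0.23, limma adjusted p = 0.5725). Its groups did not overlap, nor did those of Hc (110, 124 and 51.5 FPKM in p21TKO and 141, 132 and 164 FPKM in DKO). The groups of the other tested genes in this window overlapped, and 15.4% of all genes tested did not overlap. Gsn, the gene of the actin-severing protein gelsolin, stood at 8.13, 5.75 and 2.94 FPKM in p21TKO and 2.77, 2.89 and 3.62 FPKM in DKO (difference 0.61, SE 0.31, limma adjusted p = 0.5466). Gsn thus had its highest values in the same libraries as Glo1.

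Genes were ranked by how like their pattern over the 6 libraries was to that of Glo1. By Pearson's r of log2(FPKM + 1), among named genes that are not pseudogenes, they were Vps16, a subunit of endosomal tethering complexes (r = 0.970), the matrix protein gene Efemp1 (0.968), the heparan sulfate polymerase gene Ext1 (0.960), the cargo lectin gene Lman2 (0.958) and Gsn (0.958). Their differences between the groups were 0.61 for Gsn and 0.48 for Efemp1, against 0.65 for Glo1, and 0.07 to 0.09 for Vps16, Ext1 and Lman2, and the groups overlapped for all 5. Efemp1 stood at 5.15, 3.25 and 1.25 FPKM in p21TKO and 1.51, 2.46 and 1.48 FPKM in DKO, and so shared the high p21TKO replicate 1 and the low p21TKO replicate 3. The most opposite were Dgkz (-0.969), Dusp12 and Uaca (-0.963 each), Sptssa (-0.956) and E2f6 (-0.943). Dgkz, a diacylglycerol kinase gene, stood at 3.55, 4.06 and 4.98 FPKM in p21TKO and 4.71, 4.20 and 4.53 FPKM in DKO. With Gm13443 the highest were Mogs (0.981), Irgq (0.980) and Ubqln4 (0.973). Mogs, a glucosidase gene of N-glycan trimming, stood at 14.7, 14.2 and 13.1 FPKM in p21TKO and 11.5, 11.2 and 11.0 FPKM in DKO. Of all other genes tested 48 (0.503%) had r of at least 0.9 with Glo1, and over 6 libraries in 2 groups such values describe these libraries only.

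The other genes of methylglyoxal handling were taken from 4 lists of 54 genes, of which 42 were expressed enough to test. By limma 0 of the 42 passed, against 0.0734% of all genes tested. An unadjusted limma p under 0.05 was found for 3 of the 42, against 895 of all 9538 genes tested. By voom 0 passed and 4 had an unadjusted p under 0.05, against 261 higher and 599 lower of all 9537 genes fitted. The groups did not overlap for 3 of the 42, against 15.4% of all genes tested. Of the 42, 17 had a higher and 25 a lower value in p21TKO, against 4790 and 4748 of all 9538 genes tested. Genes of a list were measured in the same 6 libraries, so the counts of higher and lower values below are not independent. A p that misses the threshold says nothing about likeness.

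Genes that share a protein fold with the glyoxalases, with Park7 (DJ-1) and Ldhd, the dehydrogenase that uses D-lactate, had 3 higher and 6 lower values among 9 tested, with a median difference of -0.19. Lactb2, a mitochondrial endoribonuclease with the metallo-beta-lactamase fold of Hagh, stood at 64.2, 36.5 and 29.4 FPKM in p21TKO and 62.1, 69.8 and 73.3 FPKM in DKO (difference -0.72, limma adjusted p = 0.531). As for Hagh, p21TKO replicates 2 and 3 were the lowest of all. Ldhd stood at 25.7, 40.5 and 18.5 FPKM in p21TKO and 29.8, 35.0 and 48.2 FPKM in DKO (difference -0.45, limma adjusted p = 0.6552). Mblac2 (difference -0.19) and Haghl, a paralog of Hagh (difference 0.11), had limma adjusted p of 0.6961 and 0.7984. Haghl was low, at 0.997, 1.37 and 1.01 FPKM in p21TKO and 0.961, 1.04 and 0.885 FPKM in DKO. Without p21TKO replicate 3 the median of the list was 0.14, and it was 0.03 within the libraries with Y-linked transcripts and -0.11 within those without.

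Enzymes that reduce or oxidise reactive carbonyls, or repair glycated proteins, had 1 higher and 10 lower values among 11 tested, with a median difference of -0.29. Aldh3a2, the fatty aldehyde dehydrogenase, stood at 31.4, 11.0 and 9.44 FPKM in p21TKO and 56.0, 36.8 and 50.8 FPKM in DKO (difference -1.59, SE 0.46, limma adjusted p = 0.5234). Every library labelled p21TKO was below every DKO library for it. Without p21TKO replicate 1 it passed the limma test, but the calls over all 9538 genes then rose from 3 higher and 4 lower to 225 and 270. Aldh1a1, an aldehyde dehydrogenase of retinal and other substrates, stood at 192, 73.3 and 39.4 FPKM in p21TKO and 149, 187 and 259 FPKM in DKO (difference -1.22, limma adjusted p = 0.5364). Its p21TKO replicate 1 lay among the DKO libraries and p21TKO replicates 2 and 3 lay below them. Aldh9a1 (difference -0.69) had a limma adjusted p of 0.531, and the 1 higher gene, the carbonyl reductase Cbr1, stood at 29.8, 69.7 and 45.1 FPKM in p21TKO and 32.6, 28.9 and 24.9 FPKM in DKO (difference 0.65, limma adjusted p = 0.5547). The median was -0.69 without p21TKO replicate 1. It was -0.04 within the libraries with Y-linked transcripts and -0.37 within those without.

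Glutathione is the cofactor of Glo1, and its list held genes of synthesis and recycling and also peroxidases that use it. The list had 5 higher and 5 lower values among 10 tested, with a median difference of -0.06. The sign of this median turned to 0.08 without p21TKO replicate 3 and to 0.07 with no filter on low values, and it was -0.23 without p21TKO replicate 2. It was 0.01 within the libraries with Y-linked transcripts and 0.02 within those without. Gss, glutathione synthetase, stood at 17.7, 14.9 and 23.9 FPKM in p21TKO and 8.69, 15.1 and 10.6 FPKM in DKO (difference 0.68, SE 0.27, limma adjusted p = 0.5234). Its groups overlapped by p21TKO replicate 2 and DKO replicate 2 only. Gpx1, a glutathione peroxidase, stood at 1369.6, 850 and 326 FPKM in p21TKO and 1315.3, 1509.6 and 1279.3 FPKM in DKO (difference -0.91, limma adjusted p = 0.5866). Gpx4, the lipid hydroperoxide peroxidase, had a difference of 0.38 and Gclm, the modifier subunit of the first synthetic enzyme, of -0.27 (limma adjusted p = 0.7106 and 0.7439).

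Genes of triose phosphate metabolism and other sources of methylglyoxal had 8 higher and 4 lower values among 12 tested, with a median difference of 0.15. Cyp2e1, a cytochrome P450 that oxidises acetone towards methylglyoxal, stood at 2338.3, 2137.2 and 1030.1 FPKM in p21TKO and 3632.7, 2901.9 and 4132.0 FPKM in DKO (difference -1.03, SE 0.42, limma adjusted p = 0.5234). Every p21TKO library was below every DKO library for it. Aldoa, the aldolase of muscle and of many other tissues, stood at 53.2, 35.4 and 83.6 FPKM in p21TKO and 18.3, 39.3 and 29.3 FPKM in DKO (difference 0.94, limma adjusted p = 0.5234). Pklr, liver pyruvate kinase, stood at 57.0, 27.3 and 12.4 FPKM in p21TKO and 47.0, 54.4 and 59.1 FPKM in DKO (difference -0.95, limma adjusted p = 0.568). Gpd1, which turns dihydroxyacetone phosphate into glycerol phosphate, stood at 82.0, 88.3 and 63.5 FPKM in p21TKO and 42.0, 58.4 and 67.6 FPKM in DKO (difference 0.48, limma adjusted p = 0.58). Leaving out p21TKO replicate 1 gave a list median of 0.02, and leaving out p21TKO replicate 3 gave 0.36.

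**Figure D4:**
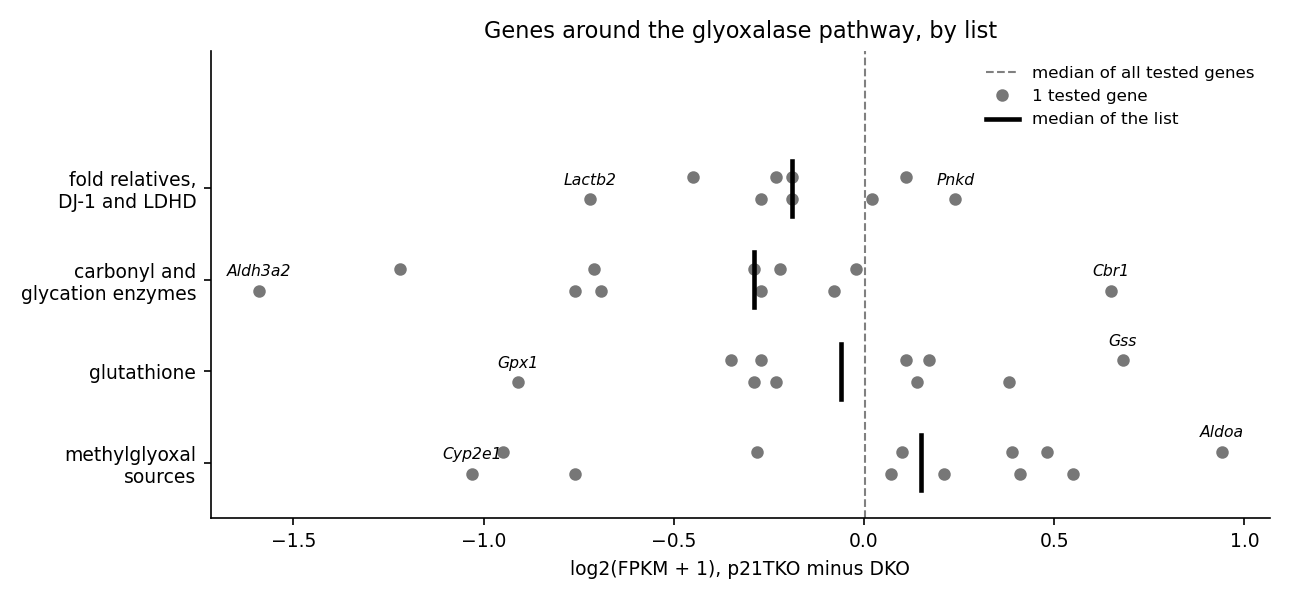
Difference in log2(FPKM + 1), p21TKO minus DKO (x axis), of each tested gene in the 4 lists (rows), with the median of the list as a black bar and the median of all genes tested, 0.002, as a dashed line. The list medians lie at -0.19, -0.29, -0.06 and 0.15, from the top row to the bottom row, and Aldh3a2 at -1.59 and Aldoa at 0.94 are the outermost genes.

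Markers of liver cell types were set beside these values. Hepatocyte markers (6 of 6 found) summed to 50971.2 to 57906.5 FPKM in p21TKO and 41510.8 to 50159.9 FPKM in DKO, so the labelled tissue was plain in each library. Neutrophil markers (6 of 6 found; Ngp, Camp and Ltf at 0 in at least 1 library) summed to 24.3, 538 and 217 FPKM in p21TKO and 10.1, 27.2 and 11.8 FPKM in DKO. Kupffer cell and macrophage markers summed to 16.5, 161 and 90.4 FPKM in p21TKO and 63.7, 40.5 and 25.9 FPKM in DKO. Endothelial markers summed to 6.29 to 56.4 FPKM in p21TKO and 9.01 to 15.2 FPKM in DKO, stellate cell markers to 23.5 to 35.6 and 12.2 to 22.1 FPKM, cholangiocyte markers to 6.91 to 27.3 and 7.0 to 18.5 FPKM, and lymphocyte markers to 0.319 to 0.871 and 1.32 to 2.04 FPKM, in the same order. Of the 5 lymphocyte markers, Cd3e, Cd79a and Ms4a1 were at 0 in at least 1 library, so these sums lie near the floor. Within p21TKO the neutrophil and macrophage sums were lowest in replicate 1, where Gm13443 stood at 91.8 FPKM, and highest in replicate 2, where it stood at 94.8 FPKM. The part of other cell types in these values, those of Gm13443 included, was not tested.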

How the data were processed

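Polyadenylated RNA of 6 liver libraries was measured. Per the labels' protocols, TRIzol was used for RNA and a NEBNext Ultra kit for libraries, and no strandedness is stated. The authors deposited 1 table of FPKM values. Per the submitters' processing notes, the tools were HISAT2 2.0.5, fastp, featureCounts 1.5.0-p3, CASAVA 1.8 and DESeq2 1.20.0, named without roles. These notes give human builds (hg38, GRCh38) for mouse gene identifiers, which leaves the authors' build unsettled. Positions, exon lengths and sequences were taken from GENCODE M21 (GRCm38) through the gene identifier, found for 55480 of 55573 genes.

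FPKM times union exon length gave whole reads within 0.02 reads for 99.25% to 99.33% of values per library. The test was limma 3.58.1 in R 4.3.3, two-sided and with a trend, on log2(FPKM + 1) of genes averaging 1 FPKM or more. Values were not rescaled, and a Benjamini-Hochberg adjusted p under 0.05 was called. The pseudocount of 1 understates the change of low genes. No exact permutation test was run, since 3 libraries in each group cannot reach 0.05. The test was checked on simulated data. Sequences, which are not reported here, were compared with BLAST 2.17.0 and Python 3.11.15 (scipy 1.17.1), and figures were drawn with matplotlib 3.10.9.

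The members and the lists were chosen with earlier results of these data known. The genes named are the members, the targeted genes, Ddx3y and Xist, the tested genes nearest Glo1, and the pairs of gene and copy. Also named are up to 4 tested genes per list with the smallest p, and the genes most and least correlated with Glo1 or Gm13443. Others were named after their values were seen (Fahd1, Btbd9, Dnah8, Glp1r, AC165962.1, AC165962.4, Stom, Hc, Gemin4, Fam57a). A symbol with more than 1 row was taken from the row that passed the filter. Terc was the exception, since its row was set by gene identifier and was not tested. Alternatives were the pseudocount, the filter, scaling, the variance model, a replicate block, voom, a term for Y-linked transcripts and leaving out each library; scaling by the reads over the listed genes was added after the values were seen.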

Additional observations from a re-analysis of the deposited data

How the results depend on the processing

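The differences of Glo1, Gm13443 and Glod4 kept their direction under the alternatives run, and that of Hagh did so except within the libraries with Y-linked transcripts (0.42). Leaving out each library in turn gave 0.20 to 1.13 for Glo1, 3.22 to 3.95 for Gm13443, -0.96 to -0.07 for Hagh and -0.40 to -0.15 for Glod4, and 0.36 to 1.30 for both loci together (0.78 when scaled to the reads over the listed genes, an alternative chosen after seeing the data). Adding FPKM in place of reads moved that sum to 2.04, since it weights Gm13443 by its short length. The difference in share was 7.0 to 9.73 points without each library and 7.68 with a term for Y-linked transcripts. The list of carbonyl enzymes ranged from -0.69 to -0.24 without each library, and the glutathione list from -0.23 to 0.08. The 3 higher and 4 lower calls over all genes became 5 higher with a pseudocount of 0.1 FPKM, 0 higher and 1 lower with no filter (limma; 776 and 959 at an unadjusted p under 0.05), 2 lower at a mean FPKM of at least 5, and 0 higher and 2 lower with voom (261 and 599 unadjusted). Without each library they ranged from 0 to 225 higher and from 1 to 270 lower, with both highest counts without p21TKO replicate 1 and the count of 0 without DKO replicate 3 (141 unadjusted). With the replicate block limma called 0 higher and 0 lower (239 and 349 unadjusted) and left the member differences as they were. Deviations of libraries with the same number correlated at -0.44, -0.49 and -0.07. The libraries of each such pair also differed in Y-linked transcripts, so these values cannot show whether the numbers mark a pairing. No gene within 0.5 Mb of Glo1 was expressed enough to test, so that window gave no value, and within 2 Mb the median was 0.02. Quantile normalization made 1 of 4 members pass (Gm13443), with 4 higher and 4 lower calls over all 9538 genes. Nothing is read from this pass, because the members were chosen on this contrast. The cause of these shifts was not tested. Depth limits Dnah8 and Glp1r, with 1 to 11 reads per library.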

Other observations

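Some genes of these lists had values that vary widely between single libraries, and they are given as values with no explanation. Gapdh, a glycolytic enzyme gene often used as a reference, stood at 1.51, 0.59 and 9.20 FPKM in p21TKO and at 0.906, 61.1 and 0.686 FPKM in DKO, and was named after its values were seen. Gcat, an enzyme gene of threonine breakdown, stood at 23.3, 3.78 and 5.35 FPKM in p21TKO and at 7.16, 18.3 and 7.46 FPKM in DKO. Fn3k, the kinase gene that removes early glycation products from proteins, stood at 3.24, 1.41 and 0.244 FPKM in p21TKO and at 2.85, 2.81 and 2.79 FPKM in DKO, so that the DKO libraries were nearly equal while the p21TKO libraries lay on both sides of them. Tkfc, the triose kinase gene, was above all DKO libraries in each p21TKO library, at 112, 111 and 93.2 FPKM in p21TKO against 65.8, 93.0 and 80.8 FPKM in DKO (difference 0.41, SE 0.25, limma adjusted p = 0.5932), which did not pass the test. Gcat, Fn3k and Tkfc were also named after their values were seen.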
